A study of Caenorhabditis elegans with 6 samples.

Results

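The LTR retrotransposons of *Caenorhabditis elegans* were examined as the 43 transposon entries whose name starts with CER or contains LTR, ignoring case. They were taken from 151 transposon families among 22336 listed loci. Of the 43 entries, 39 are named as parts of numbered Cer elements and fall into 16 families, with 18 internal entries and 21 LTR entries. The remainder are LTR1_CE and LTR2_CE, which are named for an LTR alone, and CeRep1A and CERP4, which matched by their first letters. Nothing in the names of CeRep1A and CERP4 places them among LTR elements, and they are described separately. For 17 elements both an internal entry and an LTR entry of the same name were listed, with CER1 taken as the internal part and LTRCER1 as its LTR.

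22G-RNAs were counted in whole gravid adults, collected 65 hours after arrested L1 larvae were plated. There were 3 libraries of wild-type (strain N2) and 3 libraries of *lotr-1(sam117)* I (strain RFK1256), in which the coding sequence of LOTR-1, a germ granule protein with LOTUS and Tudor domains, is deleted. The study's strain list, under another strain with this allele, gives an in-frame deletion that leaves a FLAG and GFP tag at the locus, so a tag can still be made from it. It is a single allele in a single strain. The labels do not say whether replicates were separate cultures, and p-values therefore measure the spread between these libraries, which may be technical.

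An LTR retrotransposon consists of an internal part, which encodes the Gag and Pol proteins, between a pair of long terminal repeats (LTRs). Transcription starts in the first LTR and ends in the second, and the RNA is copied back into DNA before it integrates elsewhere. LTRs can recombine and leave a solo LTR behind, so an LTR sequence can lie in the genome without its internal part. In the *C. elegans* germline, 21U-RNAs bound to PRG-1 recognise transposon RNA, and RNA-dependent RNA polymerases then use that RNA as a template for 22G-RNAs. Each 22G-RNA is named for its length of 22 bases and its first base, G, and is antisense to the RNA it was copied from. The Argonautes of the WAGO group carry these small RNAs and repress matching RNAs and loci. A count of 22G-RNAs at an element is thus a count of small RNAs made against it, and measures neither its RNA nor its movement. Each entry is a sum over the annotated copies of a repeat. The number and length of copies were not used here, so levels are compared between genotypes and not between entries.

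Total counts ranged from 3150716 to 3829101 per library, and 3 counts, taken as the floor, correspond to at most 9.52e-05% of a library. This floor covers counting error only. At the deleted gene, wild-type libraries held 477, 522 and 563 counts and mutant libraries 40, 49 and 60, so each library matched its label in this respect. Size factors (median of ratios) were 1.18 to 1.46 in wild-type and 0.737 to 0.839 in *lotr-1(sam117)*, although totals were similar. Normalized counts are counts divided by these factors. Scaling to equal totals instead moved the median log2 fold change of the 8789 loci whose mean was 10 normalized counts or more from -0.05 to -0.84, a shift of -0.79. A rise in normalized counts or in log2 fold change below is thus relative to the typical locus, unless another scaling is named. Shares are relative to the total they name. Values with total-count scaling are given where the call or the direction differed.

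To ask at which entries 22G-RNAs were deregulated, all loci were tested against a 2-fold change with DESeq2, and loci with an adjusted p-value below 0.1 were called. 22G-RNAs rose at 19 of the 41 entries that received an adjusted p-value, 46.3%, and fell at 0. Across all 11682 loci tested, 8.15% were called up and 8.14% were called down. At an unadjusted DESeq2 p below 0.05, 22 entries were higher and 0 were lower. The share of all loci at this looser limit was not counted, so these counts have no background. The edgeR test against 2-fold called 24 up and 0 down, beside 14% and 15.3% of all loci it tested. The median log2 fold change of the 41 entries was 1.66, beside 0.04 over all loci tested. The other transposon families gave a similar share of calls, with 48 of 105 up (45.7%), 1 down and a median log2 fold change of 1.24. Whether the share of calls differed between LTR elements and these families was not tested. Of the 19 called entries, 8 were internal parts, of 18 tested, 10 were LTRs, of 21 tested, and the last was CERP4. The libraries of the genotypes did not overlap at 36 entries that were higher in *lotr-1(sam117)*, beside 29.7% of all loci tested, and at 1 entry that was lower, beside 31.4%. With total-count scaling 12 entries were called up, all of them among the 19, and 1 was called down, beside 4.26% and 20.0% of all loci tested. With size factors taken from the other transposon families, which measure change relative to those families, 6 were called up, again all among the 19, and 2 down, beside 2.76% and 33.4%.

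**Figure D1:**
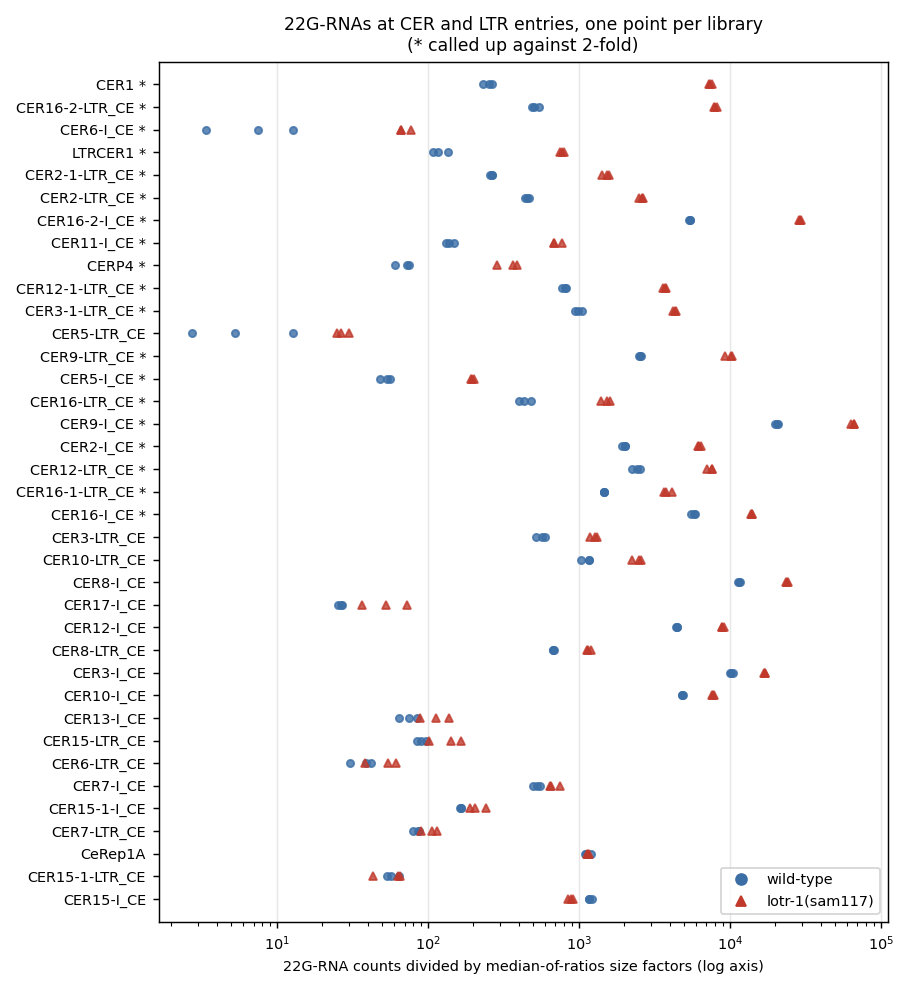
Normalized 22G-RNA counts (log axis) at the CER and LTR entries with a mean above 10, 1 point per library, ordered by log2 fold change, with blue circles for wild-type and red triangles for *lotr-1(sam117)*. An asterisk marks an entry called up against 2-fold, and CER1 shows the widest gap, with 232 to 265 in the blue points and 7290 to 7638 in the red ones.

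The share of all 22G-RNA counts that lay at the 43 entries does not depend on size factors. Wild-type libraries had 3.07%, 3.06% and 3.10% of their counts there and mutant libraries 5.01%, 5.18% and 5.24%, so that every mutant library lay above every wild-type library. The means were 3.08% ± 0.0252 and 5.14% ± 0.119 (SD, n = 3), a difference of 2.07 percentage points, with the smallest p that 3 against 3 libraries allow (exact two-sided permutation test, p = 0.1). Internal entries went from 2.55% ± 0.0189 to 4.03% ± 0.0778, and LTR entries from 0.481% ± 0.00546 to 1.08% ± 0.0406. Relative to all transposon counts, the share of the 43 entries was 33.4% ± 0.172 in wild-type and 36.4% ± 0.310 in the mutant. Within the counts at CER and LTR entries, LTR entries took 15.6% ± 0.119 in wild-type and 21.0% ± 0.328 in the mutant. Each of these 4 comparisons (all with SD over n = 3 libraries) was without overlap and had the smallest possible p (0.1 by exact two-sided permutation). The last was a difference of 5.33 percentage points, of which CER16-2-LTR_CE held 2.81 (0.633% to 3.44%). Not every LTR entry gained there, and CER10-LTR_CE (1.38% to 1.04%) and CER8-LTR_CE (0.837% to 0.497%) were among those with a smaller share in the mutant. A pair of internal entries made up 53.4% of the gain of 2.07 points. These were CER9-I_CE, which went from 0.779% ± 0.00954 to 1.45% ± 0.0464 of all counts, and CER16-2-I_CE, which went from 0.205% ± 0.00216 to 0.641% ± 0.00907 (SD, n = 3). In all, 30 entries held a larger mean share in *lotr-1(sam117)* and 13 a smaller one, with CER15-I_CE at the lowest difference, -0.026 percentage points. The other transposon families gained as well. They held 6.14%, 6.13% and 6.14% of all counts in wild-type libraries and 8.89%, 9.04% and 9.06% in mutant ones. Their mean share rose 1.47-fold, beside 1.67-fold for the 43 entries. A larger share of all counts was thus not limited to CER and LTR entries.

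**Figure D2:**
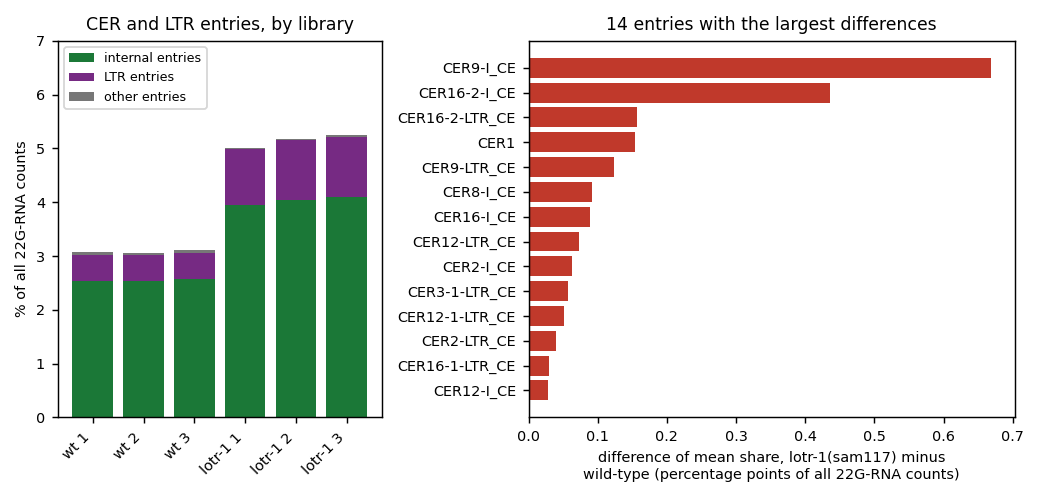
Left, percent of all 22G-RNA counts at internal (green), LTR (purple) and other (grey) entries, 1 stacked bar per library; right, difference of the mean share in percentage points for the 14 entries with the largest differences, all of them higher in *lotr-1(sam117)*. The wild-type bars reach 3.06% to 3.10%, the mutant bars 5.01% to 5.24%, and CER9-I_CE has the longest bar on the right.

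The largest rise was at Cer1, a Gypsy-type element known for the capsid-like particles it forms in germ cells. CER1 went from 265, 255 and 232 normalized counts to 7349, 7290 and 7638 in the mutant. The groups lay far apart, with a 29.7-fold rise (log2 fold change 4.89, SE 0.06). Its LTR, LTRCER1, went from 135, 117 and 108 normalized counts to 771, 802 and 749. This was a 6.48-fold rise (log2 fold change 2.70, SE 0.11, DESeq2 adjusted p = 2.32e-51), smaller than that of the internal part. Both entries were also called with total-count scaling, with log2 fold changes of 4.11 and 1.91. DESeq2 returned an adjusted p-value of 0, too small to be stored, for CER1 and for both CER16-2 parts.

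All 5 entries of the Cer16 family were called up, by very different amounts. CER16-2-LTR_CE rose from 542, 489 and 506 normalized counts to 7895, 7971 and 8246 (log2 fold change 3.97, SE 0.05). Its internal part, CER16-2-I_CE, rose from 5440, 5346 and 5419 to 29374, 28664 and 29318 (log2 fold change 2.43, SE 0.03). Both were called under each scaling tried, and their genotypes lay far apart. CER16-I_CE rose from 5866, 5512 and 5807 normalized counts to 13788, 13957 and 14095. CER16-LTR_CE rose from 441 ± 40.9 to 1511 ± 102 normalized counts and CER16-1-LTR_CE from 1473 ± 2.79 to 3861 ± 257 (SD, n = 3). The log2 fold changes of these entries were 1.28, 1.78 and 1.39 in this order, and with total-count scaling they were 0.50, 0.99 and 0.60 and not called. Reads that fit several copies were placed at random among the best positions, so near-identical parts of this family may have exchanged counts.

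In the Cer2 family both LTR entries rose by almost the same amount. CER2-LTR_CE rose from 451, 471 and 443 normalized counts to 2626, 2643 and 2491 (log2 fold change 2.51, SE 0.06). CER2-1-LTR_CE rose from 265, 258 and 266 to 1433, 1588 and 1535 (log2 fold change 2.53, SE 0.08). The internal part, CER2-I_CE, rose less, from 1994 ± 43.6 to 6300 ± 152 normalized counts (SD, n = 3). Its log2 fold change was 1.66 (SE 0.04), which became 0.87 and was not called with total-count scaling.

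Rises from low levels were seen at CER6 and CER5. Wild-type libraries held 4, 17 and 11 counts at CER6-I_CE, and mutant libraries held 49, 56 and 58. The rise (log2 fold change 3.13, SE 0.39, DESeq2 adjusted p = 4.71e-07) rests on few reads. Its LTR, CER6-LTR_CE, had 36, 52 and 61 counts against 40, 32 and 46, and its normalized counts overlapped between the genotypes. CER5-I_CE rose from 52.7 ± 4.20 to 197 ± 4.79 normalized counts (SD, n = 3). This was 1.902 (SE 0.18) on the log2 scale, and total-count scaling lowered it to 1.11, no longer called. CER5-LTR_CE had 15, 7 and 4 counts against 22, 21 and 20 and did not pass the test (DESeq2 adjusted p = 0.312), but was called by edgeR against 2-fold (log2 fold change 2.08) and when wild-type replicate 1 was left out (2.76). CER11-I_CE, for which no LTR of that name was listed, rose from 139 ± 9.27 to 717 ± 51.8 normalized counts (SD, n = 3), which is 2.36 (SE 0.11) on the log2 scale.

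The entries with the highest mean counts were internal parts, and they differed in whether they passed the 2-fold test. CER9-I_CE alone took 25.3% ± 0.122 of the counts at CER and LTR entries in wild-type, against 28.2% ± 0.279 in the mutant (SD, n = 3). It rose from 20899, 19978 and 20641 normalized counts to 63783, 66788 and 66835. The rise was 1.68 on the log2 scale (SE 0.03, DESeq2 adjusted p = 9.05e-94), and total-count scaling lowered it to 0.89, no longer called. CER9-LTR_CE rose from 2541 ± 44.3 to 9972 ± 553 normalized counts (SD, n = 3), which is 1.97 (SE 0.05) on the log2 scale, and was called under that scaling as well (1.18). At CER8-I_CE, wild-type libraries held 11737, 11236 and 11441 normalized counts and mutant libraries 23570, 24424 and 24001. Its log2 fold change of 1.07 (SE 0.03) was far larger than the spread between libraries but did not exceed 2-fold in the test (DESeq2 adjusted p = 0.256), although it did in edgeR (log2 fold change 1.13). CER3-I_CE went from 10542, 10048 and 10232 normalized counts to 16965, 16952 and 17077. Its log2 fold change was 0.73 with size factors (SE 0.03) and -0.062 with total-count scaling. CER12-I_CE went from 4409, 4437 and 4465 normalized counts to 8813, 8844 and 9092, with log2 fold changes of 1.01 (SE 0.04) and 0.22 in the same order, and was likewise called by edgeR against 2-fold (1.07). These 3 internal parts were higher in every mutant library with size factors, but the direction depended on the scaling. With factors from the other transposon families all 3 were negative (-0.21 for CER8-I_CE, -0.55 for CER3-I_CE and -0.27 for CER12-I_CE).

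LTR entries of these families moved differently. CER12-LTR_CE was called up, from 2416 ± 151 to 7456 ± 313 normalized counts (SD, n = 3), and CER12-1-LTR_CE as well, from 799 ± 26.6 to 3704 ± 62.6. Their log2 fold changes were 1.63 and 2.21, and with total-count scaling the first was no longer called (0.84). CER3-1-LTR_CE was called up, from 991 ± 56.1 to 4303 ± 76.2 normalized counts (SD, n = 3), which is 2.12 (SE 0.05) on the log2 scale. CER3-LTR_CE, at 1.17 (SE 0.08, DESeq2 adjusted p = 0.158), CER10-LTR_CE, at 1.13 (SE 0.07, adjusted p = 0.308), and CER8-LTR_CE, at 0.78 (SE 0.07, adjusted p = 1), did not pass the DESeq2 test against 2-fold. By edgeR against 2-fold, CER3-LTR_CE (log2 fold change 1.23) and CER10-LTR_CE (1.19) were called. CER3-LTR_CE was also called by DESeq2 when loci needed at least 10 counts in 3 libraries (adjusted p = 0.0992), and CER10-LTR_CE when *lotr-1(sam117)* replicate 1 was left out (1.18).

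**Figure D3:**
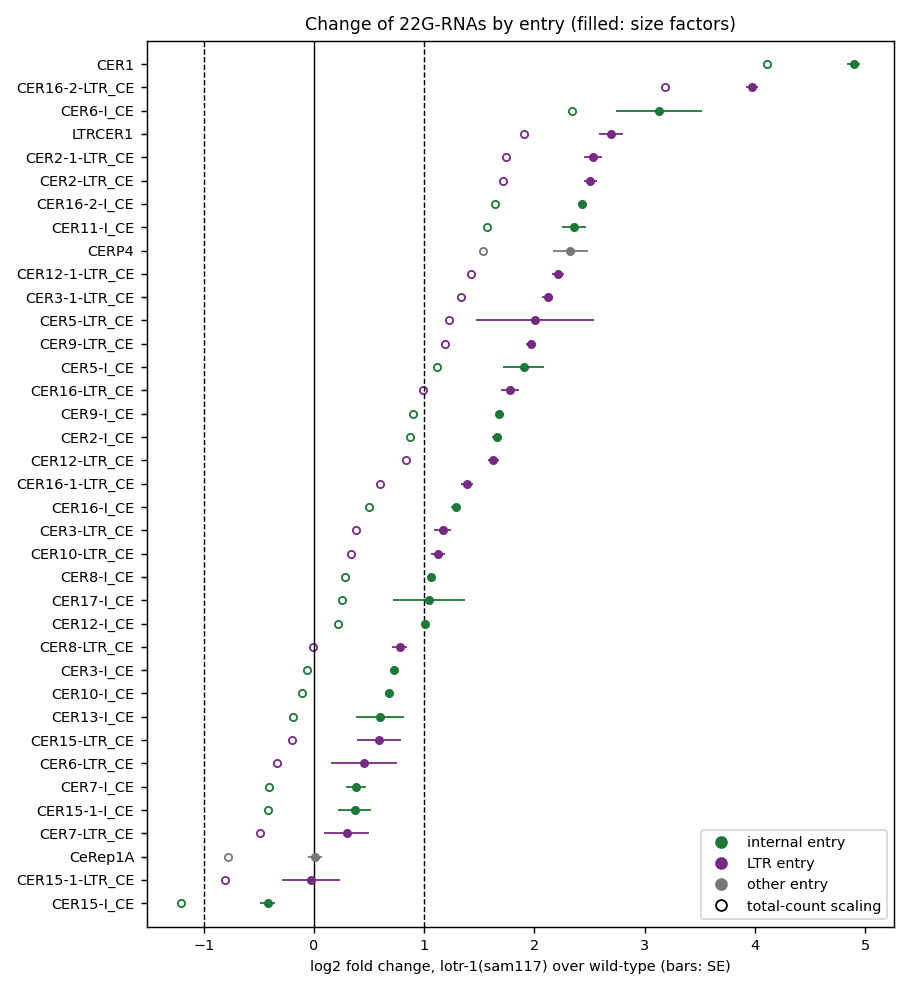
Log2 fold change, *lotr-1(sam117)* over wild-type, of the CER and LTR entries with a mean above 10 normalized counts, with filled points and SE bars for size factors, open points for total-count scaling, and dashed lines at 2-fold. Internal (green) and LTR (purple) entries are spread along the whole range, from CER1 (4.89) to CER15-I_CE (-0.42), and the open points lie to the left of the filled ones by about 0.79.

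The Cer15 and Cer7 families showed little change with size factors. CER15-I_CE was the only entry with an adjusted p-value whose mutant libraries all lay below the wild-type libraries. Its wild-type libraries held 1172, 1168 and 1216 normalized counts and its mutant libraries 848, 891 and 921, which is -0.42 (SE 0.07) on the log2 scale. It did not pass the test against 2-fold (DESeq2 adjusted p = 1), passed a test against no change (DESeq2 adjusted p = 3.07e-09), and was called down with total-count scaling (-1.21, DESeq2 adjusted p = 0.00856). CER15-LTR_CE went the other way, from 97.8, 84.8 and 89.5 normalized counts to 101.8, 141.8 and 165.0, without overlap and without a call against 2-fold. Its log2 fold change was 0.59, and those of CER15-1-I_CE and CER15-1-LTR_CE were 0.37 and -0.025. With total-count scaling all 3 were negative (-0.20, -0.42 and -0.81), as CER15-I_CE was. CER7-I_CE went from 493, 525 and 555 normalized counts to 650, 748 and 647, and CER7-LTR_CE from 85.9, 87.1 and 80.0 to 89.6, 106.1 and 114.4. Both were slightly higher in every mutant library with size factors, by 0.38 and 0.30 on the log2 scale, and the differences became -0.41 and -0.49 with total-count scaling. CER10-I_CE (0.68 and -0.11) and CER13-I_CE (0.60 and -0.19) also differed in direction between the scalings.

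By family, 9 of 16 Cer families had at least 1 called entry. In 5 of them, Cer1, Cer2, Cer9, Cer11 and Cer16, every tested entry was called. In 4, Cer3, Cer5, Cer6 and Cer12, called and uncalled entries stood side by side, and in 7, Cer4, Cer7, Cer8, Cer10, Cer13, Cer15 and Cer17, none was called. No background of such families was counted. The Cer families hold 1 to 5 entries each, so a larger family had more chances of a call. Entry by entry, 8.15% of all loci tested and 45.7% of the other transposon families tested were called up. A family without a call was not shown to be unchanged. The 6 entries with a mean of at most 10 normalized counts had few reads. CER4-I_CE had 0, 1 and 2 counts in wild-type libraries, against 4, 6 and 3 in mutant ones, and LTR2_CE had 0, 0 and 1 against 3, 5 and 4. CER13-LTR_CE had 1, 2 and 1 against 4, 4 and 3, and LTR1_CE had 4, 0 and 1 against 5, 2 and 4. CER4-LTR_CE and CER17-LTR_CE, with 0 to 2 counts in each library, received no adjusted p-value. None of these entries passed the test against 2-fold, while LTR2_CE and CER4-I_CE passed a test against no change (DESeq2 adjusted p = 0.0205 and 0.0587). At this depth a 2-fold difference was not detectable at such entries. CER17-I_CE, with 31, 36 and 37 counts against 27, 44 and 55, was not called either (log2 fold change 1.05, SE 0.33).

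The internal part was then compared with the LTR of the same element. The log2 ratio of internal to LTR counts in a library does not depend on size factors, and it was compared between genotypes at the 14 of 17 elements with at least 20 counts in each part, summed over the libraries. The ratio was lower in *lotr-1(sam117)* at 9 elements and higher at 5. The libraries of the genotypes did not overlap at 8 of the 9 and at 4 of the 5, together 85.7% of the elements tested. The remaining 3 pairs, CER4, CER13 and CER17, had too few counts, so there was no wider background to read the share against. At each of these 12 the exact two-sided permutation p was 0.1, the smallest possible, and 0.117 after Benjamini-Hochberg adjustment over the 14 elements.

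At most of these elements the internal count was lower relative to that of its LTR in the mutant. At CER16-2 the log2 ratio was 3.33, 3.45 and 3.42 in wild-type, against 1.895, 1.85 and 1.83 in the mutant. The difference was -1.54 (SE 0.04), so that the internal part went from 10.5-fold to 3.62-fold the count of its LTR. At CER15 the ratio was 3.58, 3.78 and 3.76 in wild-type, against 3.05, 2.65 and 2.48 in the mutant, a difference of -0.98 (SE 0.18). CER2 (-0.85, SE 0.06), CER12 (-0.62, SE 0.06), CER16 (-0.49, SE 0.07), CER10 (-0.45, SE 0.09), CER3 (-0.44, SE 0.08) and CER9 (-0.29, SE 0.03) moved the same way without overlap. At CER5 the wild-type ratios ran from 2.10 to 4.14, wider than the difference of -0.28 (SE 0.59, exact two-sided permutation test, p = 0.7).

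Cer1 and Cer6 went the other way. At CER1 the log2 ratio was 0.97, 1.12 and 1.10 in wild-type, against 3.25, 3.18 and 3.35 in the mutant, a difference of 2.20 (SE 0.07). The internal part thus went from 2.09-fold to 9.59-fold the count of its LTR. At CER6 the ratio was -3.02, -1.58 and -2.42 in wild-type, against 0.29, 0.80 and 0.33 in the mutant, a difference of 2.81 (SE 0.45) on few counts. CER15-1 (0.40, SE 0.14) and CER8 (0.29, SE 0.02) were also higher in the mutant without overlap. At CER7, the element with the smallest difference, this was 0.09 (SE 0.14) and the libraries overlapped (exact two-sided permutation test, p = 0.7).

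**Figure D4:**
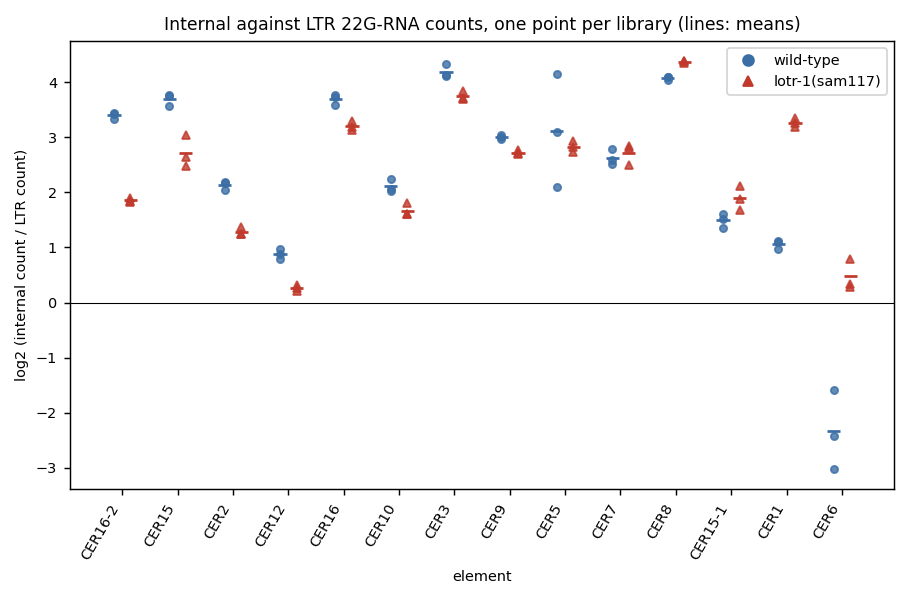
Log2 ratio of internal to LTR counts at the 14 elements with at least 20 counts in each part, 1 point per library with a line at the mean, blue circles for wild-type and red triangles for *lotr-1(sam117)*, ordered by the difference between genotypes. The ratio drops most at CER16-2 (from 3.40 to 1.86 in the mean) and rises at CER1 (from 1.06 to 3.26) and CER6 (from -2.34 to 0.47).

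LTR entries of the same family were also set against each other, a comparison chosen after the values were seen. Of 7 pairs in 5 families, the log2 ratio of the LTR counts differed between genotypes without overlap at 6 (exact two-sided permutation test, p = 0.1 for each, adjusted p = 0.117 over the 7 pairs). The Cer16 pairs set the same LTR entries against each other, so the pairs are not independent. No wider background of such pairs was counted, so the number without overlap is descriptive only. CER16-2-LTR_CE had 1.16-fold the counts of CER16-LTR_CE in wild-type, against 5.33-fold in the mutant, a difference of 2.20 on the log2 scale (SE 0.05). CER16-1-LTR_CE against CER16-2-LTR_CE reversed, with a mean log2 ratio of 1.52 in wild-type, against -1.06 in the mutant. CER3-1-LTR_CE gained relative to CER3-LTR_CE (0.95, SE 0.10), and CER12-1-LTR_CE relative to CER12-LTR_CE (0.59, SE 0.08). For CER2-1-LTR_CE against CER2-LTR_CE the difference was 0.02 (SE 0.07) and the libraries overlapped (exact two-sided permutation test, p = 0.7).

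**Figure D5:**
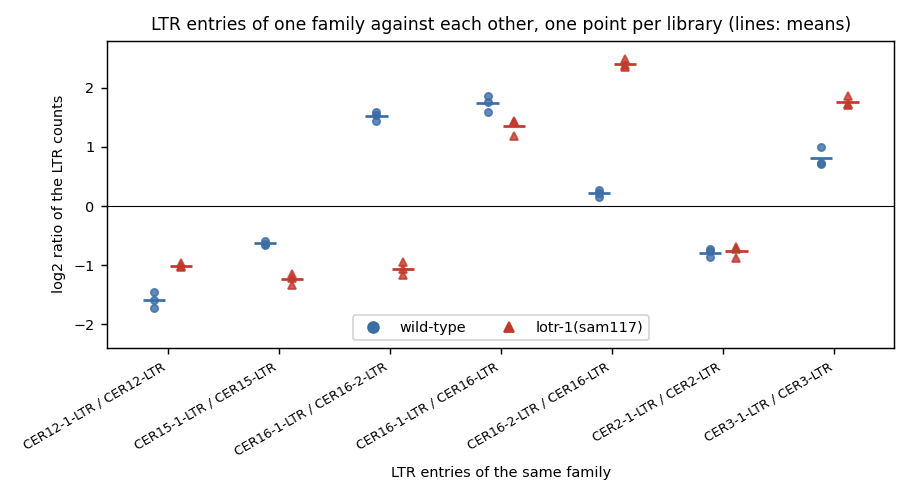
Log2 ratio of the counts at 2 LTR entries of the same Cer family, 1 point per library with a line at the mean, blue circles for wild-type and red triangles for *lotr-1(sam117)*. The ratios that involve CER16-2-LTR_CE move most, and that of the Cer2 LTRs has a mean of -0.79 in wild-type, against -0.77 in the mutant.

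CERP4 and CeRep1A, which matched by name only, moved differently from each other. CERP4 rose from 60.4, 72.8 and 74.5 normalized counts to 289, 388 and 366 (log2 fold change 2.33, SE 0.16, DESeq2 adjusted p = 3.47e-15). CeRep1A had 1109, 1104 and 1211 normalized counts in wild-type libraries and 1134, 1162 and 1154 in mutant ones, which overlapped. On the log2 scale the difference was 0.010 (SE 0.07), which total-count scaling turned to -0.78. Among the entries of numbered Cer elements alone, 18 of 37 tested were called up (48.6%), beside 8.15% of all loci and 45.7% of the other transposon families. With total-count scaling 11 of the 37 were called up and 1 down, beside 4.26% and 20.0% of all loci tested.

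The other retrotransposon entries listed, LINE, RTE, NeSL, Vingi and SINE families, which lack LTRs, were counted for comparison. Of 14 tested, 10 were called up and 0 down in DESeq2, with a median log2 fold change of 1.44, beside the 8.15% and 8.14% of all loci given above. With total-count scaling 4 were called up and 1 down, beside 4.26% and 20.0%. 22G-RNAs at genes that act in transposon silencing were counted as well. Of 21 such genes, 0 were called up and 1 was called down, *nrde-1*, which encodes a factor of nuclear RNAi (log2 fold change -2.005, SE 0.16, DESeq2 adjusted p = 1.3e-08). The 1 call is 4.76% of the list, beside 8.14% of all loci. With total-count scaling 5 of the 21 were called down (20.0% of all loci were), and with factors from the other transposon families 14 were (33.4% of all loci). The median of the 21 genes was -0.13. The lowest uncalled genes were *mut-2* (-1.64, SE 0.29, DESeq2 adjusted p = 0.148) and *ekl-1* (-0.94, SE 0.18). The log2 fold change was 0.27 (SE 0.05) for *prg-1*, which encodes the Piwi Argonaute. For *hrde-1*, which encodes the germline nuclear Argonaute, it was -0.24 (SE 0.06). Both were negative with total-count scaling (-0.52 and -1.03), as all 21 genes were, beside a median of -0.75 over all loci tested.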

How the data were processed

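The 6 libraries (3 wild-type and 3 *lotr-1(sam117)*, grouped by their labels) were each deposited as raw counts per locus, without normalization. The authors trimmed reads with cutadapt 2.4, aligned them to WBcel235/ce11 with Bowtie 1.2.2, allowing 1 mismatch and keeping 1 random best position, and assigned them with featureCounts 1.6.2 to genes (Ensembl release 96) or to RepeatMasker transposons. Reads of 22 bases that start with G and lie antisense were counted, and whether PCR duplicates were removed is not stated. Such random placement can move counts between near-identical copies.

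From these counts, genotypes were compared over all loci with DESeq2 1.42.0 in R 4.3.3 (median-of-ratios size factors, test against 2-fold, Benjamini-Hochberg adjusted p below 0.1, independent filtering). Fold changes were not shrunken. Shares and log2 ratios (0.5 added to each count) were compared by exact permutation tests with scipy 1.17.1. edgeR 4.0.16 was an alternative. Scripts were tested on simulated counts. Gene symbols came from Ensembl release 115 on the same assembly. Entries described library by library were the 6 called ones with the largest change, the 6 with the highest mean, and the parts of the 4 elements with the largest and the 1 with the smallest ratio difference. Members, lists and tests were chosen with earlier results of these data known. Sequences of the elements were not used here.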

Additional observations from a re-analysis of the deposited data

How the results depend on the processing

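The number of CER and LTR entries called up, 19, stayed between 19 and 27, with 0 down, under TMM factors, size factors from genes only, both edgeR tests, the DESeq2 test against no change with an estimate above 2-fold, both low-count filters, an FDR limit of 5% and the omission of each library (19 to 20 up). Under these, 5.09% to 17.4% of all loci tested were called up. The calls at CER and LTR entries were 12 up and 1 down with total-count scaling, and 6 up and 2 down with size factors from the other transposon families, which measure change relative to those families. The median log2 fold change of 8789 loci moved by -0.79 and -1.28 under these scalings. With total-count scaling the direction became negative for CER8-LTR_CE (-0.011), CER3-I_CE (-0.062), CER10-I_CE (-0.11), CER13-I_CE (-0.19), CER15-LTR_CE (-0.20), CER6-LTR_CE (-0.34), CER7-I_CE (-0.41), CER15-1-I_CE (-0.42), CER7-LTR_CE (-0.49) and CeRep1A (-0.78). With factors from the other transposon families it became negative for CER3-LTR_CE (-0.11), CER10-LTR_CE (-0.15), CER8-I_CE (-0.21), CER17-I_CE (-0.23), CER12-I_CE (-0.27), CER8-LTR_CE (-0.50), CER3-I_CE (-0.55), CER10-I_CE (-0.60), CER13-I_CE (-0.67), CER15-LTR_CE (-0.69), CER6-LTR_CE (-0.82), CER7-I_CE (-0.90), CER15-1-I_CE (-0.91), CER7-LTR_CE (-0.98) and CeRep1A (-1.26). Entries near 0 also changed sign elsewhere. CeRep1A was at -0.038 with TMM factors and between -0.030 and 0.040 without single libraries, and CER15-1-LTR_CE was at 0.045 in both edgeR tests and between -0.12 and 0.14 without single libraries.

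Without the entry with the highest mean count, CER9-I_CE, the difference in the share of all counts was 1.40 in place of 2.07 percentage points, and that in the share of transposon counts 1.199 in place of 2.98. Omission of single libraries gave 2.02 to 2.13 and 2.85 to 3.15. The number of elements with a lower internal to LTR ratio was 9 of 14, and 8 to 9 without single libraries. CER5 changed direction with a pseudocount of 5 (0.075), and omission of single libraries gave -0.79 (wild-type replicate 1) to 0.23 (wild-type replicate 3). When the entries of a family were summed by part, the ratio difference at Cer3 was -1.12 in place of -0.44. At Cer12 it was -0.79 in place of -0.62, and at Cer2 -0.86 in place of -0.85. At Cer16 it was -0.51, beside -1.54 for CER16-2 and -0.49 for CER16. The sum for Cer15 gave -0.65, beside -0.98 for CER15 and 0.40 for CER15-1. No pairing of the libraries by replicate number was detected, which does not show that there was none. Deviations of same-numbered libraries correlated at 0.008 to 0.009, and a fit with the replicate block called 19 entries up and 0 down. Counts of a few reads limit CER4, CER6, CER13, CER17 and both entries named for an LTR alone.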
